A study of Mus musculus with 9 samples.

Results

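Ovol1, Ovol2, Grhl1, Grhl2, Grhl3, Esrp1, Esrp2, Elf3, Rab25 and St14 are transcription factors, splicing regulators and effectors of epithelial cells. They were described here in mouse mammary tumours of 3 transplantable cell lines. The genes were chosen by symbol, and each of the 10 had exactly 1 feature annotated with its symbol alone, out of 19938 genes tested. Total RNA from 9 snap-frozen tumour samples, 3 from each of the lines NDL, Met1 and SSM2, was hybridised to Mouse Gene 1.0 ST arrays. Cultured cells of each line had been injected bilaterally into mammary fat pads of hosts that were female, FVB/NJ and 6 to 8 weeks old, and the tumours were collected when 5 to 10 mm wide. All groups share this host, site and tissue, and the labels name no treatment. As background, NDL carries an activated ErbB2 transgene and Met1 was derived from a polyoma middle T mammary tumour, both transgenes being under the MMTV promoter, while SSM2 is a hormone receptor-positive line. Each group is 1 cell line, so line and oncogene cannot be told apart. The labels do not say that the samples of a line came from separate animals, so p-values measure the spread between these samples, which may be technical.

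Grainyhead-like factors (Grhl) bind and open enhancers of junction genes, and Ovo-like zinc finger proteins (Ovol) repress genes of the mesenchymal state. Together they are known as gatekeepers of epithelial identity, in mutual repression with Zeb1. The proteins Esrp1 and Esrp2 bind RNA and keep the epithelial pattern of exon use in transcripts such as Fgfr2 and Cd44. Elf3 is an ETS factor restricted to epithelia, Rab25 is a small GTPase of the recycling endosome, and St14 encodes matriptase, a serine protease at the cell surface.

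Values are log2 RMA signals, for which a unit is a doubling of signal, and their precision is limited by the number of arrays. Upper quartiles of signal over all genes lay between 7.84 and 8.09 in NDL, 8.02 and 8.05 in Met1, and 7.98 and 8.08 in SSM2. NDL replicates 1 and 2 had the lowest, and across genes NDL replicates 2 and 3 were the least alike of any pair within a line (r = 0.947, across genes, which are not independent replicates). The stated epithelial origin was checked on 7 luminal markers (Epcam, Krt8, Krt18, Krt7, Krt19, Cdh1 and Muc1). Their mean signal ran from 9.66 to 9.95 in the NDL arrays and from 11.32 to 11.49 in SSM2, but only from 6.06 to 7.64 in Met1. The gap between NDL and SSM2 was uneven over the markers. Krt19 differed by -7.14 and Muc1 by -1.74 (NDL minus SSM2, log2), and the other 5 by -0.81 to 0.05. Met1 replicate 3 was the lowest array, with Epcam at 5.25 there against 8.11 and 8.85 in the other two. In bulk tumour RNA, fewer epithelial cells and less RNA per epithelial cell cannot be told apart.

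Met1 tumours had lower signal for most of these regulators than either other line, while few of them passed between NDL and SSM2. Compared with Met1, 9 of the 10 genes were higher in NDL and none was lower (limma, adjusted p under 0.05), against 8.88% of all genes that were higher in NDL. Compared with SSM2, 8 of the 10 were lower in Met1 and none was higher, against 4.71% of all genes that were lower. Passing in both of these comparisons were Ovol1, Ovol2, Grhl2, Esrp1, Esrp2, Elf3, Rab25 and St14, where 2.18% of all genes did. The comparisons share the Met1 arrays and are not independent of each other. Between NDL and SSM2, 2 of the 10 passed, Grhl1 and Ovol2, both higher in NDL, where 9.35% of all genes were higher and 7.52% lower. The median difference over the 10 genes was 2.41 for NDL minus Met1, -2.44 for Met1 minus SSM2 and 0.38 for NDL minus SSM2 (log2), against 0.06, 0.04 and 0.09 over all genes.

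**Figure D1:**
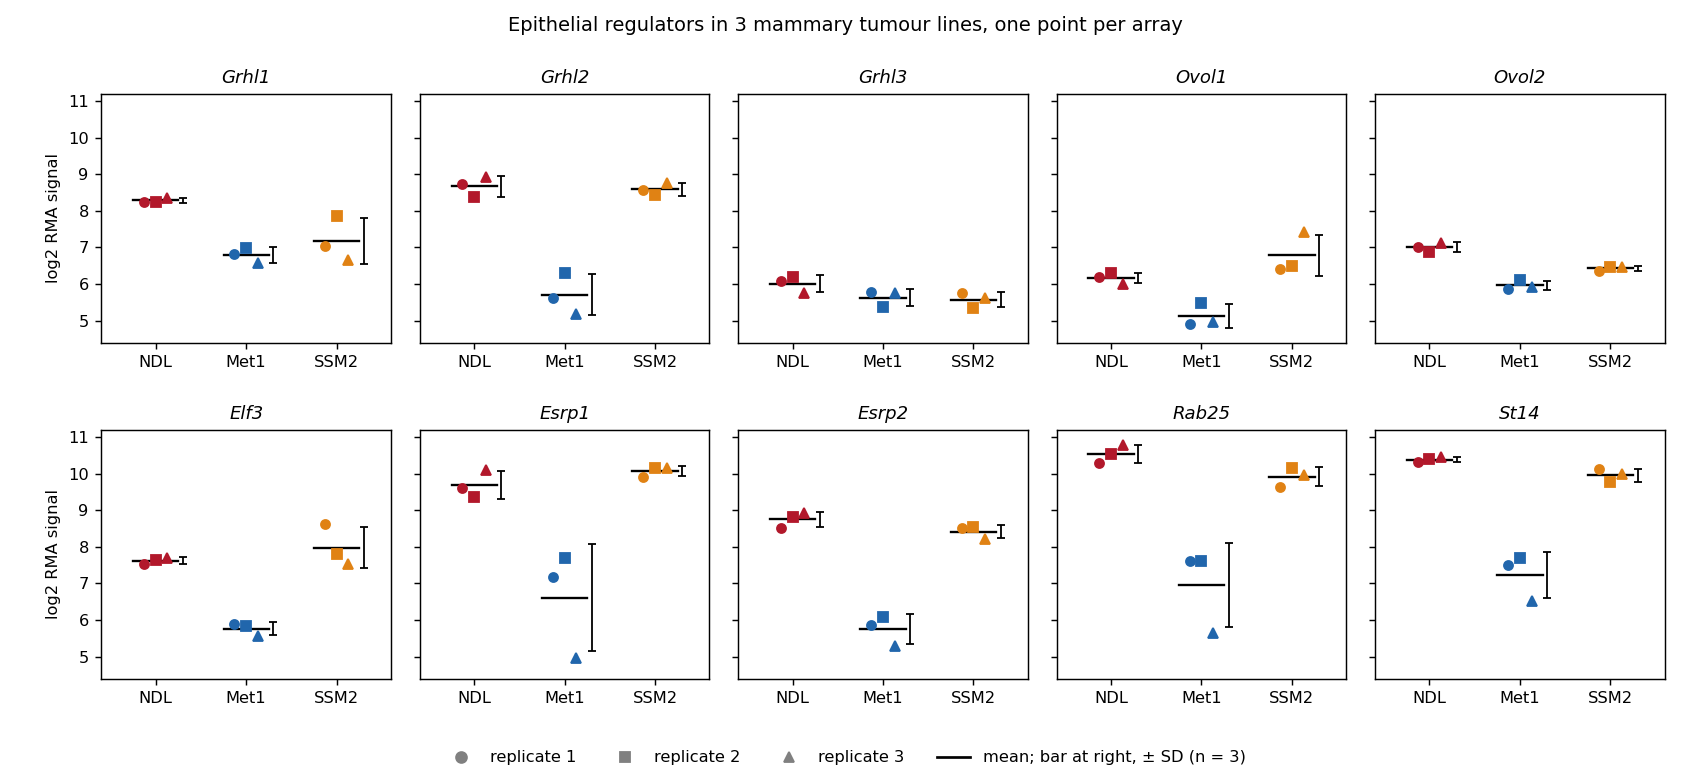
Log2 RMA signal of each regulator in every array, by line, with marker shape for the replicate, a line at the mean and a bar for the SD (n = 3). Met1 arrays lie below all NDL arrays for 9 of the 10 genes and below all SSM2 arrays for 8; Grhl3 overlaps between Met1 and both other lines, and Met1 replicate 3 drops to 4.95 for Esrp1 and 5.64 for Rab25.

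The Met1 arrays lay wholly below the NDL arrays for 9 genes, where 19.5% of all genes had NDL wholly above, and wholly below the SSM2 arrays for 8, where 13.1% of all genes did. None had Met1 wholly above either line, where 18.6% of all genes did against NDL and 18.6% against SSM2. Between NDL and SSM2 the arrays did not overlap for 6 genes, with NDL above for Ovol2, Grhl1, Grhl3, Rab25 and St14 (19.7% of all genes) and below for Ovol1 (12.0%). The mean over the 10 genes was 8.25, 8.27 and 8.41 in the NDL arrays, 6.30, 6.52 and 5.64 in Met1, and 8.09, 8.10 and 8.08 in SSM2. All group means lay above the 25th percentile of gene means (4.91), the lowest being Ovol1 in Met1 at 5.12. Single arrays came close to it, with Ovol1 at 4.91 and 4.96 in Met1 replicates 1 and 3 and Esrp1 at 4.95 in Met1 replicate 3. The size of the differences of these genes from Met1 is therefore less certain.

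Grhl2, the grainyhead factor best known for holding mammary epithelium in its epithelial state, stood at 8.72, 8.36 and 8.93 in NDL, 5.62, 6.30 and 5.19 in Met1, and 8.57, 8.42 and 8.76 in SSM2. Every Met1 array was at least 2.06 below every NDL array and 2.12 below every SSM2 array, while NDL and SSM2 overlapped. Grhl2 was 7.83-fold higher in NDL than in Met1 (2.97, SE 0.27, adjusted p = 0.000233). Its Met1 signal was 7.37-fold lower than in SSM2 (-2.88, adjusted p = 0.000399). The NDL minus SSM2 difference was 0.09, with a 95% interval from -0.54 to 0.71 (adjusted p = 0.838).

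Grhl1, a paralogue active in the epidermis, read 8.24, 8.25 and 8.36 in NDL, 6.81, 6.99 and 6.57 in Met1, and 7.03, 7.86 and 6.64 in SSM2. It had another order than Grhl2, since NDL stood above both other lines and Met1 and SSM2 overlapped. The difference from Met1 was 1.49 (2.82-fold, SE 0.27, adjusted p = 0.00646) and from SSM2 1.10 (2.15-fold, SE 0.27, adjusted p = 0.0279). The call against SSM2 ended without NDL replicate 1 or 2, Met1 replicate 1, or SSM2 replicate 1 or 3 (adjusted p from 0.051 to 0.0827). It also ended without NDL replicates 1 and 2 together (0.218), with array weights (0.0935) and with only NDL and SSM2 in the fit (0.0806). The call against Met1 ended without NDL replicates 1 and 2 together (adjusted p = 0.096). Met1 minus SSM2 stood at -0.39 (95% interval -1.02 to 0.24, adjusted p = 0.488). Whether the 2 paralogues differ in their response across lines was not tested.

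Grhl3, the third member of the family, which acts in skin barrier formation, passed in no comparison. It stood at 6.09, 6.18 and 5.76 in NDL, 5.78, 5.36 and 5.74 in Met1, and 5.74, 5.34 and 5.61 in SSM2. NDL minus Met1 was 0.38 (95% interval -0.01 to 0.77, adjusted p = 0.158), and NDL minus SSM2 was 0.45 (0.06 to 0.84, adjusted p = 0.105). The second passed without NDL replicate 3 (0.57, adjusted p = 0.0346). Met1 minus SSM2 was 0.06 (-0.33 to 0.45, adjusted p = 0.905).

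Ovol2, which represses Zeb1 in mammary and other epithelia, had SDs of 0.06 to 0.13 within lines. Its signal was 7.02, 6.87 and 7.13 in NDL, 5.86, 6.11 and 5.93 in Met1, and 6.35, 6.46 and 6.46 in SSM2. The lines formed 3 levels without overlap, NDL above SSM2 above Met1. The NDL minus Met1 difference was 1.04 (2.06-fold, SE 0.11, adjusted p = 0.000464). NDL minus SSM2 was 0.58 (1.50-fold, adjusted p = 0.00934), a call that ended with array weights (adjusted p = 0.0517). Met1 minus SSM2 was -0.46, a 1.37-fold decrease (adjusted p = 0.0303). That last call ended without NDL replicate 1, Met1 replicate 1 or 3, or SSM2 replicate 2 or 3 (adjusted p from 0.0549 to 0.126), and with equal medians (0.0533) or an intensity trend (0.0568). It also ended with a term for the replicate number in the fit (adjusted p = 0.071, limma).

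Ovol1, the paralogue known from hair and epidermis, read 6.20, 6.29 and 6.01 in NDL, 4.91, 5.49 and 4.96 in Met1, and 6.42, 6.49 and 7.43 in SSM2. SSM2 replicate 3 was the highest array and Met1 lay below both other lines. Ovol1 was 3.16-fold lower in Met1 than in SSM2 (-1.66, SE 0.28, adjusted p = 0.0059). It was 2.06-fold higher in NDL than in Met1 (1.05, SE 0.28, adjusted p = 0.0309), a call that ended without NDL replicate 1 or 2, or Met1 replicate 1 or 3 (adjusted p from 0.0911 to 0.106), without NDL replicates 1 and 2 together (0.299) and with array weights (0.0563). With a term for the replicate number in the fit, the NDL minus Met1 call of Ovol1 ended too (adjusted p = 0.0552, limma). The NDL minus SSM2 value of Ovol1 was -0.61 (95% interval -1.24 to 0.02, adjusted p = 0.155), with the opposite sign to that of Ovol2.

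Elf3 read 7.52, 7.64 and 7.70 in NDL, 5.90, 5.83 and 5.57 in Met1, and 8.61, 7.79 and 7.53 in SSM2. All Met1 arrays were lower than any array of the other lines, and NDL and SSM2 overlapped. It was 3.61-fold higher in NDL than in Met1 (1.85, SE 0.25, adjusted p = 0.00148) and 4.63-fold lower in Met1 than in SSM2 (-2.21, SE 0.25, adjusted p = 0.00101). NDL minus SSM2 was -0.36 (95% interval -0.93 to 0.21, adjusted p = 0.329).

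Esrp1 stood at 9.61, 9.35 and 10.10 in NDL, 7.18, 7.71 and 4.95 in Met1, and 9.92, 10.15 and 10.16 in SSM2. Met1 was below both lines in every array, and its replicates spread over 2.75 (SD 1.46), where 95% of all genes had an SD under 0.37 in Met1. Esrp1 was higher in NDL than in Met1 by 3.07 (SE 0.61, adjusted p = 0.00916) and lower in Met1 than in SSM2 by 3.46 (log2 difference -3.46, SE 0.61, adjusted p = 0.00757). Without Met1 replicate 3 these were 2.24 (adjusted p = 0.00176) and -2.63 (adjusted p = 0.00128). The NDL minus Met1 call ended with array weights (2.55, adjusted p = 0.0619) and without NDL replicates 1 and 2 together (3.48, adjusted p = 0.0943). NDL minus SSM2 was -0.39, with a wide 95% interval from -1.78 to 1.00.

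Esrp2, the second paralogue, was at 8.52, 8.82 and 8.91 in NDL, 5.86, 6.08 and 5.30 in Met1, and 8.50, 8.53 and 8.21 in SSM2. The Met1 arrays again lay below all others, and they spread less than for Esrp1 (SD 0.40). Esrp2 was 8.02-fold higher in NDL than in Met1 (3.00, SE 0.21, adjusted p = 6.38e-05) and 6.35-fold lower in Met1 than in SSM2 (-2.67, SE 0.21, adjusted p = 0.000191). For NDL minus SSM2 the value was 0.34 (95% interval -0.14 to 0.81, adjusted p = 0.277). Each gene had 1 value per array, so the use of single exons was not measured.

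Rab25, which steers recycling of integrins and apical cargo, had the largest NDL minus Met1 difference of the 10. It read 10.29, 10.54 and 10.78 in NDL, 7.62, 7.61 and 5.64 in Met1, and 9.64, 10.15 and 9.97 in SSM2. Met1 replicate 3 was 1.98 below the mean of the other two Met1 arrays. The difference from NDL was 12.0-fold (3.58, SE 0.48, adjusted p = 0.00147). Relative to SSM2, Met1 signal was 7.79-fold lower (-2.96, SE 0.48, adjusted p = 0.00543). Without Met1 replicate 3 these were 2.92 (adjusted p = 0.000233) and -2.30 (adjusted p = 0.000865). Between NDL and SSM2 the difference was 0.62 (95% interval -0.49 to 1.72, adjusted p = 0.381).

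St14 read 10.30, 10.41 and 10.44 in NDL, 7.50, 7.69 and 6.51 in Met1, and 10.12, 9.76 and 9.98 in SSM2. Met1 was again lowest in every array, with replicate 3 lowest of all. St14 was 8.88-fold higher in NDL than in Met1 (3.15, SE 0.28, adjusted p = 0.000188) and 6.60-fold lower in Met1 than in SSM2 (-2.72, SE 0.28, adjusted p = 0.000583). NDL minus SSM2 was 0.43 (95% interval -0.20 to 1.06, adjusted p = 0.292).

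**Figure D2:**
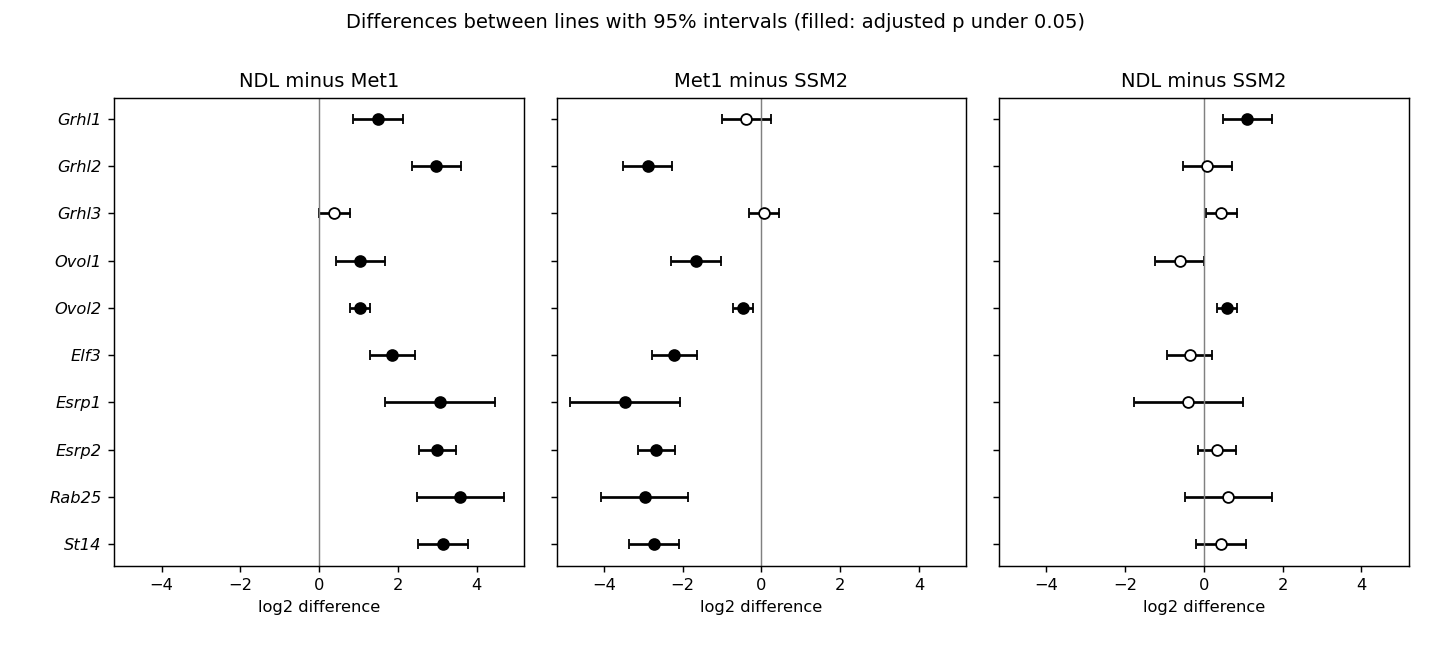
Log2 difference of each regulator in the 3 comparisons of lines, with the fit's 95% interval; filled points have an adjusted p under 0.05. In NDL minus Met1 9 points are filled and right of 0, in Met1 minus SSM2 8 are filled and left of 0, and in NDL minus SSM2 only Grhl1 and Ovol2 are filled.

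Promoter windows of the 250 bases before the annotated start were found for 5 of the genes (Elf3, Ovol2, Rab25, Grhl3 and Grhl1, the last with 2 starts) in RefSeq on GRCm38.p6. They were searched for the E-box CAGGTG, read on both strands, which Zeb and Snail repressors bind. They were also searched for a grainyhead site (AACCNGTT), an Ovo site (CCGTTA) and an ETS site (CCGGAA), again on both strands. The E-box was found in 3 of the 6 windows, against 17.2% of 32817 windows of the same length over all genes. The grainyhead letters were found in 1 window, that of Rab25 (1.78% of all windows), and the Ovo and ETS letters in none (2.17% and 12.0%). The windows with an E-box are shown because the genes that encode these repressors also differed between the lines, together with that of Ovol2, which holds none of the 4 motifs. Capitals mark the E-box, with CACCTG its reverse complement.
Rab25 (GRCm38.p6 chr3:88548280-88548529, minus strand): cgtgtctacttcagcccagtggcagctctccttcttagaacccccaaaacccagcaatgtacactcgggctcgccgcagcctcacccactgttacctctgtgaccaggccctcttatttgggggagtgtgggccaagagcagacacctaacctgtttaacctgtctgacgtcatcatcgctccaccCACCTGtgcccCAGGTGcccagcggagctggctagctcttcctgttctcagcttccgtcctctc
Elf3 (GRCm38.p6 chr1:135258473-135258722, minus strand): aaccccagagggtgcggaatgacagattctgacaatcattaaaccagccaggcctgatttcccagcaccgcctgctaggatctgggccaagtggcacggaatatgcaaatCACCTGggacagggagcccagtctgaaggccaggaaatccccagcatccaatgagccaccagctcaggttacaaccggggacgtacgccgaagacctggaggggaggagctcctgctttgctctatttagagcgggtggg
Grhl3 (GRCm38.p6 chr4:135573633-135573882, minus strand): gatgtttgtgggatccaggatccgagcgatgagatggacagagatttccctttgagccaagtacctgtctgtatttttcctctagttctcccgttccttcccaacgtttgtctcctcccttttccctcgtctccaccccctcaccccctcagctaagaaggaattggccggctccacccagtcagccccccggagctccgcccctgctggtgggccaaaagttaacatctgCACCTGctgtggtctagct
Ovol2 (GRCm38.p6 chr2:144331363-144331612, minus strand): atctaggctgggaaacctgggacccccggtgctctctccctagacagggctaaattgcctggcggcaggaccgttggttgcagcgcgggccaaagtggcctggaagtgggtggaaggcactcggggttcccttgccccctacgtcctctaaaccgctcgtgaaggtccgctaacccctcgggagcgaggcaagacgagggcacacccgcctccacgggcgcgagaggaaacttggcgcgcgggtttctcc
Counted from the start site, the E-boxes of Rab25 begin at -64 and -53, that of Elf3 at -140 and that of Grhl3 at -19, and the grainyhead letters of Rab25 begin at -102. Rab25 and Elf3 were lower in Met1 than in both other lines, whereas Grhl3, with an E-box too, passed in no comparison, and Ovol2, with none, was lowest in Met1. Grhl1, with no E-box in either window, was lower in Met1 than in NDL but did not pass between Met1 and SSM2. A link between these letters and the differences between lines was not tested. A match is a description of the letters in these windows and not of binding.

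Among the 6 repressors of epithelial genes, 4 were lower in NDL than in Met1 (Zeb1, Zeb2, Snai1 and Twist1) and none was higher, against 10.2% of all genes that were lower. The repressor Zeb1 read 6.02, 5.89 and 6.09 in NDL, 8.27, 8.64 and 8.31 in Met1, and 7.22, 6.48 and 6.53 in SSM2. The lines did not overlap, and Met1 was highest. Zeb1 in NDL was 5.30-fold lower than in Met1 (-2.40, SE 0.20, adjusted p = 0.000159) and 1.67-fold lower than in SSM2 (-0.74, adjusted p = 0.0401). Its Met1 minus SSM2 difference was 1.66 (3.17-fold, adjusted p = 0.00142). Without Met1 replicate 3, the NDL minus SSM2 call of Zeb1 ended (adjusted p = 0.0619, limma), though the difference itself stayed at -0.74, since no Met1 array enters it. Between Met1 and SSM2, Zeb1, Snai1 (1.48, adjusted p = 0.0216) and Twist1 (3.46, adjusted p = 3.39e-05) were higher in Met1 and Snai2 was lower, where 7.1% of all genes were higher.

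Single repressors did not share one order of lines. Twist1, a helix-loop-helix factor, read 8.47, 8.34 and 8.33 in NDL, 10.34, 10.45 and 10.28 in Met1, and 7.26, 6.99 and 6.46 in SSM2, so it was higher in NDL than in SSM2 (1.48, adjusted p = 0.00127). Snai2 was highest in SSM2 (7.94, 7.98 and 7.15), above Met1 (6.04, 5.92 and 5.29; Met1 minus SSM2 -1.94, adjusted p = 0.00368) and NDL (5.40, 5.53 and 6.04; -2.04, adjusted p = 0.00246). It is also a regulator of basal mammary cells, and SSM2 was the line with the highest basal marker mean (8.06 to 8.67, against 6.51 to 6.97 in NDL and 5.70 to 6.94 in Met1). The markers did not all follow this mean. Krt5, Krt14 and Krt17 were lower in NDL than in SSM2, Oxtr was higher, and Acta2, Myh11 and Cnn1 did not pass. Between NDL and Met1, Acta2, Cnn1 and Oxtr were higher in NDL and none was lower. Krt5 read 8.46, 9.43 and 5.21 in Met1 and did not pass between Met1 and either other line. Without Met1 replicate 3, Krt5 was lower in NDL than in Met1 (-2.91, adjusted p = 0.0187, limma), and Cnn1 no longer passed (0.0576). A part of basal cells in the Snai2 signal was not tested. Snai1 was lower in NDL than in Met1 (-1.65, adjusted p = 0.0093) as was Zeb2 (-1.95, adjusted p = 0.00773). Zeb2, which macrophages express as well, stood at 8.07 in SSM2 replicate 1 against 6.64 and 6.61, and Twist2 passed in no comparison (adjusted p from 0.128 to 0.911).

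The miR-200 genes, whose mature products target Zeb1 and Zeb2 and which Grhl2 is known to activate, were measured for 4 of 5 genes. Mir200a and Mir200b lie close together on chromosome 4, and Mir141 and Mir200c on chromosome 6. All 4 were higher in NDL than in Met1, where 8.88% of all genes were, and Mir200b was lower in Met1 than in SSM2 (-1.17, adjusted p = 0.0234). None passed between NDL and SSM2. Mir200b read 5.46, 5.37 and 5.43 in NDL, 3.78, 4.01 and 3.68 in Met1, and 5.69, 4.55 and 4.74 in SSM2, and NDL was 3.02-fold above Met1 (1.59, SE 0.27, adjusted p = 0.00406). Mir141 (1.35, adjusted p = 0.00453), Mir200a (0.88, adjusted p = 0.0175) and Mir200c (0.65, adjusted p = 0.0264) were also higher in NDL than in Met1. Without Met1 replicate 3, Mir200b (adjusted p = 0.0202, limma) and Mir141 (0.00441) kept their calls between NDL and Met1. Those of Mir200a (difference 0.86, adjusted p = 0.0611) and Mir200c (0.61, 0.093) ended, as did that of Mir200b between Met1 and SSM2 (-1.10, 0.084). Met1 means of Mir200b (3.82) and Mir141 (3.93) lay under the 25th percentile of gene means, so the size of their differences is uncertain, and the features read precursor loci, not mature miRNA. The mature 3p sequences in RefSeq are shown with the seed (bases 2 to 8) in capitals. The 4 fall into 2 seed groups that differ by a single base. Each group holds a gene from chromosome 4 and a gene from chromosome 6, so the groups are not separate results.
miR-200b-3p: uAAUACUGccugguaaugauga
miR-200c-3p: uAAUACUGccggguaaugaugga
miR-200a-3p: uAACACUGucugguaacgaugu
miR-141-3p: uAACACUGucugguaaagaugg
The first 2 share the seed AAUACUG and the others AACACUG.

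**Figure D3:**
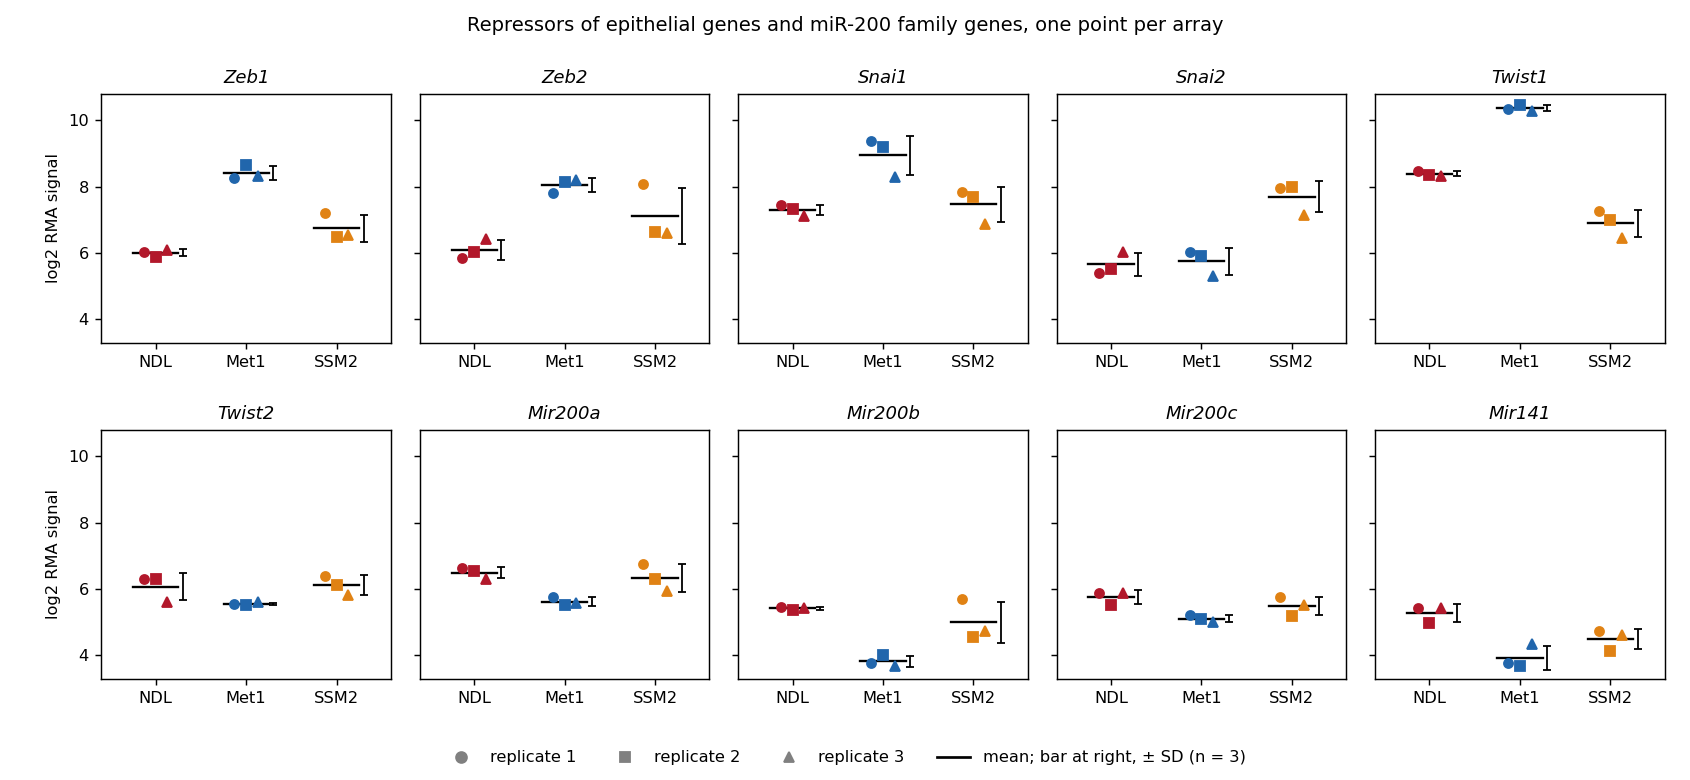
Log2 RMA signal of 6 repressors of epithelial genes and 4 miR-200 family genes in every array, by line, with the mean and SD (n = 3). Zeb1, Zeb2, Snai1 and Twist1 are higher in Met1 than in NDL, Snai2 is highest in SSM2, and the 4 miR-200 genes are lower in Met1 than in NDL.

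Around St14, the genes for its inhibitors and partner protease went the same way. The inhibitors of matriptase, Spint1 and Spint2, were 15.1-fold (3.92, SE 0.19, adjusted p = 1.24e-05) and 6.90-fold (2.79, SE 0.36, adjusted p = 0.00125) higher in NDL than in Met1. Their Met1 minus SSM2 differences were -3.55 (adjusted p = 3.39e-05) for Spint1 and -2.31 (adjusted p = 0.00459) for Spint2. Tmprss2, a related surface protease, was higher in NDL than in Met1 by 3.43 (adjusted p = 0.000962), and its Met1 minus SSM2 difference was -3.50 (adjusted p = 0.00137). Spint2 stood at 9.33, 9.32 and 7.79 in the Met1 arrays, with replicate 3 lowest as for St14. Prss8, the protease prostasin that acts with matriptase, was higher in NDL than in Met1 (3.41, adjusted p = 0.000201) and than in SSM2 (1.31, adjusted p = 0.0217). Of 8 measured genes of this list, 4 were higher and 1 lower in NDL than in Met1, none was higher and 5 were lower in Met1 than in SSM2, and 1 was higher and 2 lower in NDL than in SSM2. The remaining 2 calls against SSM2 were Plau and Hgf. Plau, the urokinase gene, went the other way between NDL and Met1 (-1.81, adjusted p = 0.00855) and also differed between NDL and SSM2 (-1.51, adjusted p = 0.0227). Hgf, a growth factor made by stromal cells, was higher in SSM2 than in NDL (NDL minus SSM2 -1.93, adjusted p = 0.00574) and Met1 (Met1 minus SSM2 -1.58, adjusted p = 0.0166). For this list and those below, 8.88% of all genes were higher and 10.2% lower in NDL than in Met1. Shares were 7.1% higher and 4.71% lower in Met1 than in SSM2, and 9.35% higher and 7.52% lower in NDL than in SSM2.

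Around Rab25, 4 of 9 genes of the recycling endosome were higher in NDL than in Met1, none was lower, and the same 4 were lower in Met1 than in SSM2: Rab17, Myo5b, Rab11fip1 and Rab11fip4. Rab17, another epithelial small GTPase, read 7.82, 7.95 and 7.57 in NDL, 5.39, 5.22 and 5.51 in Met1, and 6.76, 6.50 and 5.80 in SSM2. Rab17 was 5.31-fold higher in NDL than in Met1 (2.41, SE 0.23, adjusted p = 0.000303). Myo5b, a motor that binds Rab11 vesicles, was 4.49-fold higher (2.17, SE 0.17, adjusted p = 0.000115). Both also exceeded SSM2 in NDL (1.43, adjusted p = 0.00474, and 1.03, adjusted p = 0.00496). Without Met1 replicate 3, Rab17 (adjusted p = 0.064, limma) and Rab11fip1 (0.0842) no longer passed between Met1 and SSM2. The ubiquitous Rab11a (-0.42, adjusted p = 0.279) and Rab11b (-0.38, adjusted p = 0.0593) did not pass between NDL and Met1.

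Of 15 other splicing regulators, 2 were higher and 6 lower in NDL than in Met1. Rbm47, which favours epithelial exon use, read 9.53, 9.64 and 10.16 in NDL, 7.25, 7.50 and 7.23 in Met1, and 8.43, 8.51 and 8.31 in SSM2, with no overlap between lines. It was 5.46-fold higher in NDL than in Met1 (2.45, SE 0.17, adjusted p = 6.38e-05) and passed in both other comparisons (1.36 over SSM2, adjusted p = 0.00124; Met1 minus SSM2 -1.09, adjusted p = 0.00437). Rbfox2, known for mesenchymal exon choices, had the reverse order, with 8.52, 8.42 and 8.68 in NDL, 9.66, 9.74 and 9.95 in Met1, and 9.27, 9.23 and 9.25 in SSM2. NDL minus Met1 was -1.24 (SE 0.11, adjusted p = 0.000219) and Met1 minus SSM2 was 0.53 (adjusted p = 0.0176). Without Met1 replicate 3 the second call ended (adjusted p = 0.0627, limma), as did that of Hnrnpf between NDL and Met1 (0.111). Ptbp2 (-1.73, adjusted p = 0.0165), Mbnl1 (-1.67, adjusted p = 0.00341) and Khdrbs3 (1.59, adjusted p = 5.37e-05) also passed between NDL and Met1. Khdrbs3 (2.36, adjusted p = 7.7e-06), Mbnl3 (-1.48, adjusted p = 0.00179) and Khdrbs1 (-1.22, adjusted p = 0.0176) passed between NDL and SSM2 too. Khdrbs3 had the same value in every Met1 array (SD 0), which lowers the spread behind its p-values, so these may be too small. The median over these 15 genes was -0.64 for NDL minus Met1, and their mean signal was lower in NDL replicates 1 and 2 (8.84 and 8.60) than in replicate 3 (9.53).

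Gene-level signal of 10 measured transcripts with exons under Esrp control showed no common direction, with 4 higher and 1 lower in NDL than in Met1 and a median of -0.04. Fgfr2, whose epithelial isoform depends on these proteins, was higher in NDL than in Met1 (2.05, adjusted p = 0.0132) and lower in Met1 than in SSM2 (-3.40, adjusted p = 0.00187). Its Met1 values were 5.35, 5.76 and 4.88. Ctnnd1 (0.57, adjusted p = 0.00947), Tcf7l2 (1.01, adjusted p = 0.0238) and Scrib (0.44, adjusted p = 0.0324) were the other higher genes, and Exoc7 was lower (-0.66, adjusted p = 0.0158). Cd44, which passed only between Met1 and SSM2, was higher in Met1 (1.18, adjusted p = 0.0262), as was Exoc7 (0.88, adjusted p = 0.00611). For Slk, NDL minus SSM2 was -1.86 (adjusted p = 0.04). Without Met1 replicate 3, only Ctnnd1 kept its call between NDL and Met1 (adjusted p = 0.040, limma). The calls of Fgfr2, Tcf7l2, Scrib and Exoc7 between these lines ended (adjusted p from 0.0544 to 0.0744). So did those of Cd44 between Met1 and SSM2 (0.071) and Slk between NDL and SSM2 (0.0629). The Slk difference stayed at -1.86, since no Met1 array enters it.

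Of 3 ETS relatives of Elf3, 2 were higher in NDL than in Met1. Elf5, the alveolar cell factor, read 9.98, 10.15 and 10.50 in NDL but 5.65, 5.82 and 5.25 in SSM2, where Elf3 did not pass against NDL, and 6.48, 6.74 and 5.26 in Met1. It was 16.5-fold higher in NDL than in Met1 (4.05, adjusted p = 0.000201) and 24.9-fold higher than in SSM2 (4.64, adjusted p = 0.000112). Ehf, the closest epithelial relative, was higher in NDL than in Met1 (3.14, SE 0.71, adjusted p = 0.0165) and stood at 6.24, 6.79 and 4.91 in Met1. Without Met1 replicate 3 the Ehf call ended (2.61, adjusted p = 0.061), and Elf5 passed between Met1 and SSM2 (1.04, adjusted p = 0.03). Spdef passed in no comparison. Of the CP2 and Ovo relatives, Tfcp2 was lower in NDL than in Met1 (-0.46, adjusted p = 0.0287) and Tfcp2l1 lower in Met1 than in SSM2 (-1.58, adjusted p = 0.00872), and no other passed. The Tfcp2 call ended without Met1 replicate 3 (-0.41, adjusted p = 0.105, limma).

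Of 20 measured junction and polarity genes, many of them bound by Grhl2 in epithelia, 17 were higher in NDL than in Met1 (8.88% of all genes). Against SSM2, 17 were lower in Met1 (4.71% of all genes). Between NDL and SSM2, 1 was higher and 2 lower in NDL, where 9.35% and 7.52% of all genes were. The medians were 1.83, -2.07 and 0.02. The 4 with the largest NDL minus Met1 differences were Cldn7 (4.02, adjusted p = 2.73e-05), the basolateral sorting adaptor Ap1m2 (3.39, adjusted p = 0.00016), Epcam (3.20, adjusted p = 0.0209) and Cldn3 (2.90, adjusted p = 0.0017). Without Met1 replicate 3 the Epcam difference was 2.12 (adjusted p = 0.00179), below those of Marveld3, Cldn4 and Cdh1 among others. Cgn (adjusted p = 0.0778, limma) and Llgl2 (0.0771) then no longer passed between NDL and Met1. Nor did Cgn (0.0666) and Pard6b (0.121) between Met1 and SSM2. Cldn4 was at 11.84, 11.08 and 11.52 in SSM2, above NDL (NDL minus SSM2 -2.58, adjusted p = 0.00025) and Met1 (Met1 minus SSM2 -5.04, adjusted p = 2.24e-05). Ocln was lower in NDL relative to SSM2 (-1.16, adjusted p = 0.00997), and the polarity gene Llgl2 was higher (0.55, adjusted p = 0.0205). The list mean was 6.67, 6.81 and 6.07 in the Met1 arrays, with replicate 3 lowest.

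**Figure D4:**
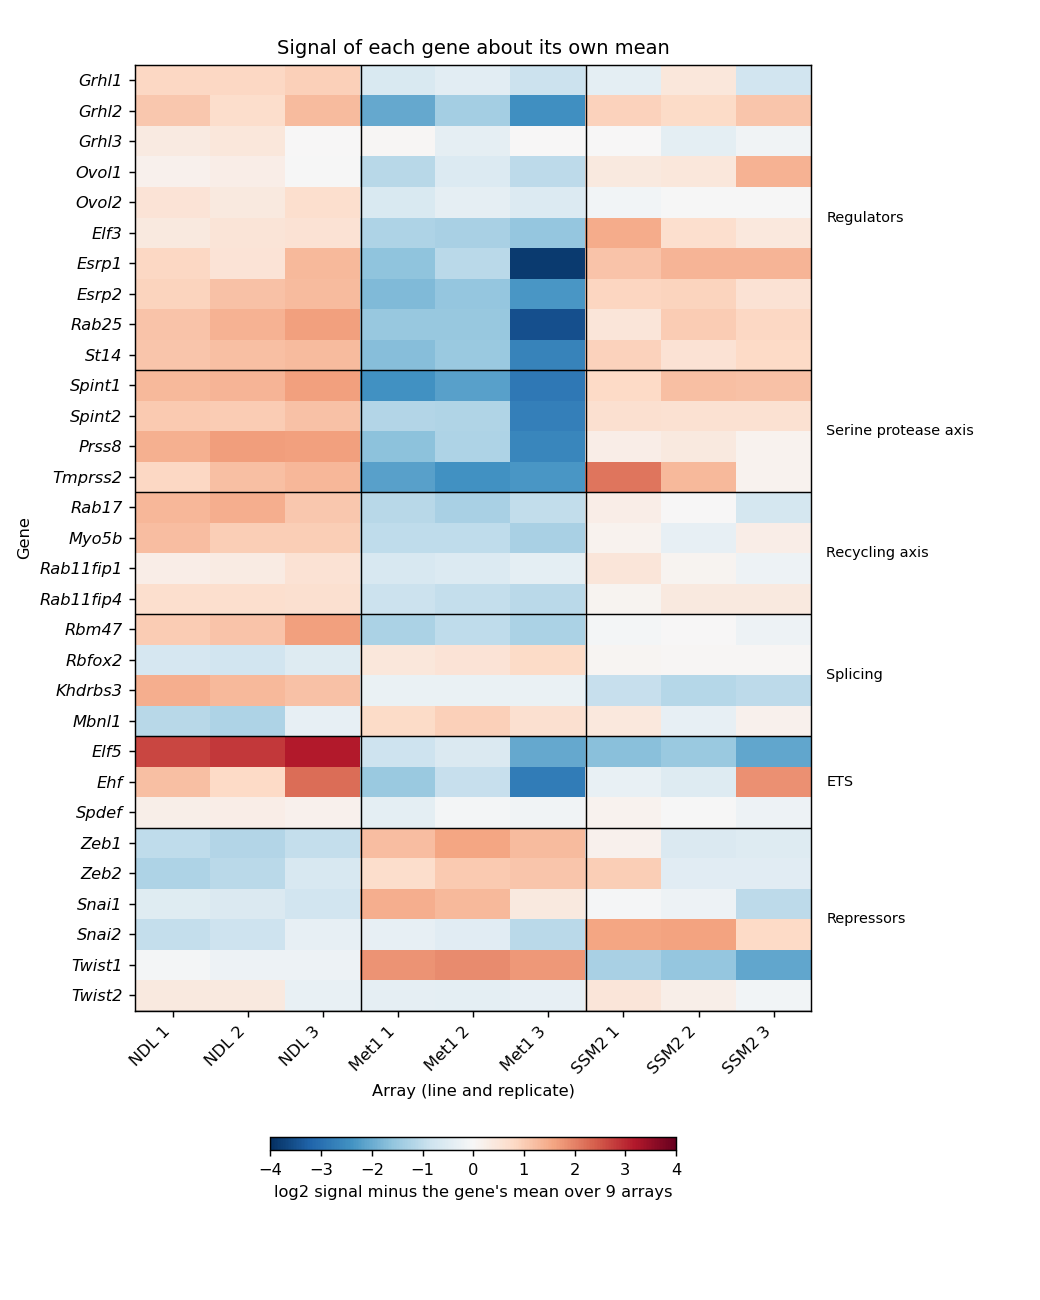
Log2 signal of each gene minus its own mean over the 9 arrays (colour), for the 10 regulators and partner genes, in columns by line and replicate. The Met1 columns are blue for most regulators and protease genes and red for Zeb1 and Twist1, Met1 replicate 3 is the darkest column for Esrp1 and Rab25, and Elf5 is red in NDL alone.

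Within Met1, replicate 3 was the lowest array for 7 of the 10 regulators (Grhl1, Grhl2, Esrp1, Esrp2, Elf3, Rab25 and St14) and the highest for none, where it was the lowest for 35.9% of all genes. Replicate 2 was the highest for 7, for which the share over all genes was not counted. The gap between the mean of replicates 1 and 2 and replicate 3 was 2.49 for Esrp1, 1.98 for Rab25, 1.09 for St14, 0.77 for Grhl2 and 0.67 for Esrp2. For Elf3, Grhl1 and Ovol1 it was 0.30, 0.33 and 0.24, for Ovol2 0.06 and for Grhl3 -0.17. Of the repressors, Snai1 (8.28 against 9.37 and 9.19), Snai2 (5.29 against 6.04 and 5.92) and Twist1 (10.28 against 10.34 and 10.45) were also lowest in that array. Zeb1 (8.31 against 8.27 and 8.64), Zeb2 (8.19 against 7.79 and 8.14) and Twist2 (5.59 against 5.54 and 5.53) were not. These gaps were noticed in the data and carry no test. The regulators also shared an order of arrays within NDL. Replicate 3 was the highest NDL array for 8 of the 10 and the lowest for 2, where it was the lowest for 52.1% of all genes.

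Markers of other cell types moved with some of these comparisons. Of 7 macrophage markers, 6 were lower in NDL relative to Met1, and 4 were higher in Met1 relative to SSM2. Without Met1 replicate 3, only Mrc1 of these kept its call between NDL and Met1 (adjusted p = 0.013, limma). The other macrophage calls of both comparisons ended (adjusted p from 0.0541 to 0.123), though the C1qc difference from NDL moved only from -1.43 to -1.39. The NDL arrays had mean macrophage signals of 8.70 to 9.43, the Met1 arrays of 10.32 to 10.48 and the SSM2 arrays of 8.72 to 10.04. Fibroblast markers were higher in 3 and lower in 2 of 8 between NDL and Met1, and higher in 2 and lower in 3 between Met1 and SSM2, with a mean of 9.06 ± 0.07 (SD, n = 3) in NDL and array means of 8.46 to 9.31 (Met1) and 9.07 to 10.70 (SSM2). Of 6 T and B cell markers, 2 were lower in NDL relative to Met1 and 2 higher in Met1 relative to SSM2, and of 5 endothelial markers 2 were lower in NDL relative to SSM2. Without Met1 replicate 3 the T and B cell calls ended (adjusted p from 0.0561 to 0.0843, limma). The fibroblast markers Pdgfra, Dpt and Col1a2 then no longer passed between Met1 and SSM2. The part of these cells in the regulators' differences was not tested. Keratinocyte markers, relevant because Grhl3, Ovol1 and St14 are active in skin, had array means of 4.63 to 4.91 (NDL), 4.62 to 4.66 (Met1) and 4.78 to 5.14 (SSM2), and none of the 5 measured passed. Krt1 and Krt2 lay between 4.07 and 4.77 in all arrays and Krt10 between 5.45 and 6.13. Ivl read 6.20 in SSM2 replicate 1 against 4.32 and 4.35 in the others, and Lor read 5.42, 5.70 and 4.99 in SSM2.

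The genes with the most similar profile to each regulator were ranked by the root-mean-square difference over the 9 arrays, after each gene was centred on its own mean. For Esrp1 these were Epcam (0.30), Kcnk1 (0.33) and Cdh1 (0.36), where the profile of Esrp1 itself varied by 1.71 about its mean. For Rab25 they were Kcnk1 (0.26), Mpzl2 (0.28) and Tmc4 (0.32), and for Grhl2 Cdcp1 (0.15), Ripk4 (0.20) and Lsr (0.28). Esrp2 was closest to Lsr (0.20), Ripk4 (0.25) and Lad1 (0.25), and St14 to Lad1 (0.21), Tmem184a (0.23) and its own inhibitor gene Spint2 (0.24). Elf3 was closest to Rdh10 (0.20), Plekhh1 (0.21) and Rflnb (0.24), and Ovol1 to Cdk18 (0.19), Cnnm2 (0.22) and Pard6b (0.24). Grhl1 was closest to Adcy9 (0.20), Atg13 (0.24) and Lpin1 (0.24), and Ovol2 to Bend7 (0.11), Atp6v1e1 (0.11) and Fam187b (0.13). Grhl3 was closest to Lyzl6, Cct8l1 and Nmrk2 (0.07 to 0.08), but it varied by only 0.27 itself. Among the regulators, the closest pairs were Esrp2 with St14 (0.20), Grhl2 with St14 (0.26) and Grhl2 with Esrp2 (0.28), and Esrp1 and Grhl3 were farthest apart (1.71). These distances depend on the size of each gene's range.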

How the data were processed

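Expression was measured in 9 tumour samples on 1 array each. The deposited values are log2 signals made by the authors with RMA (oligo 1.40.2), per the submitters' processing notes; the genome build is not given in the sources used here. Of 35556 features, 21789 carried 1 gene symbol, and per gene the feature with the highest mean was kept (19938 genes, no filter on signal). Groups came from the sample titles. Lines were compared in limma 3.58.1 (R 4.3.3) with lmFit and eBayes on all 9 arrays (6 residual and 2.42 prior degrees of freedom), with two-sided contrasts and Benjamini-Hochberg adjustment over all genes, and calls at an adjusted p under 0.05. Intervals are the fit's 95% intervals. The fit was tested on simulated data. Array precision is set by 3 arrays per line, and the labels give no array batch. The genes and lists were chosen with earlier results of these data known. All 10 regulators are named; of other lists, up to 4 called genes with the largest differences per comparison, all called genes of lists with 5 or fewer, and the repressors. Rab11a, Rab11b, cell type markers named singly and further called list members were named after their values were seen. Some genes of the lists were not analysed here, and counts are over the measured ones. Alternatives were signal filters, cyclic loess, quantile normalisation and equal medians, a robust fit with an intensity trend, array weights and other feature rules. Others were a replicate block, fits of 2 lines, joint adjustment, and arrays left out. Quantile normalisation and leaving out NDL replicates 1 and 2 together were added after the data were seen. So were fits of the partner and marker lists without Met1 replicate 3. Leaving out an array of a line not compared leaves a difference unchanged and alters only its SE and adjusted p. Sequences are from RefSeq. Figures used matplotlib 3.10.9 and pandas 2.3.3.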

Additional observations from a re-analysis of the deposited data

How the results depend on the processing

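Over all alternatives, 622 single regulator results kept their direction and their side of the threshold, 27 lost and 1 gained a call, and 4 turned direction, all with no call: Grhl2, NDL minus SSM2, without NDL replicate 3 (-0.0417; leave-one-out range -0.0417 to 0.241), Grhl3, Met1 minus SSM2, without Met1 replicate 1 (-0.0102) or SSM2 replicate 2 (-0.0483; range -0.0483 to 0.196), and Esrp1, NDL minus SSM2, without NDL replicates 1 and 2 (0.0198). Leaving out 1 array gave 2371 to 6631 genes called between NDL and Met1 (3814 with all arrays), 1873 to 7018 between NDL and SSM2 (3364), 1360 to 2754 between Met1 and SSM2 (2356) and 3354 to 8311 in any comparison (5007). The highest counts of each came without NDL replicate 3. Regulators called numbered 8 to 9, 1 to 3 and 7 to 8. Array weights gave 7 regulators between NDL and Met1, 0 between NDL and SSM2 (Ovol2 adjusted p = 0.0517, Grhl1 0.0935, limma) and 4007 genes between Met1 and SSM2. With only the lines compared in the fit, NDL against SSM2 gave 1755 genes and 1 regulator. Without NDL replicates 1 and 2, where the lone NDL array is assumed to vary like the other lines, counts were 1702 genes and 6 regulators (NDL against Met1), 1190 genes and 1 regulator (NDL against SSM2) and 2936 genes in any comparison. The causes were not tested. Deviations of same-numbered arrays correlated at r from -0.35 to 0.29, and those of arrays with other numbers from -0.33 to 0.34. With 3 arrays per line this cannot decide whether the shared numbers pair the samples. With the replicate block, 3343, 2779 and 1968 genes and 8, 2 and 7 regulators were called in the order above, and Ovol1, NDL minus Met1 (adjusted p = 0.0552), and Ovol2, Met1 minus SSM2 (0.071), no longer passed. With 3 arrays per line, small differences such as those of Grhl3 were not resolved.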

Other observations

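SSM2 replicate 3 stood apart from the other SSM2 arrays for several epithelial genes, in both directions. They are given as values since 3 arrays allow no outlier test. Ovol1 was at 7.43 there against 6.42 and 6.49, and the protease gene Tmprss11e was at 8.96 against 5.72 and 5.06. Ehf was at 9.54 against 7.41 and 7.19, the polarity gene Pard6b at 8.53 against 7.13 and 7.38, and the junction gene Tjp3 at 8.61 against 7.47 and 7.23. In the same array Elf3 (7.53), Grhl1 (6.64) and Esrp2 (8.21) were the lowest of the SSM2 arrays. Lower there than in the other SSM2 arrays were Cgn, at 6.76 against 8.19 and 8.29, Muc1, at 7.35 against 9.23 and 9.28, and Tmprss2, at 7.59 against 9.59 and 8.72. Marker means of other cells were lowest in that array too, at 4.95 against 7.32 and 6.72 for neutrophils, 5.66 against 7.71 and 7.13 for adipocytes, and 9.07 against 10.70 and 9.91 for fibroblasts. Khdrbs3, a splicing regulator, read 6.63 in all 3 Met1 arrays.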
